A study of Mus musculus with 2 samples.

Results

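Among thymic epithelial cells (TECs) of mice, 95 of 8305 cells held transcripts of cortical epithelium and of thymocytes under the same cell barcode. They were chosen by their measured RNA. A cell was kept if more than 2000 and fewer than 7500 genes were detected and if mitochondrial genes gave under 15% of its unique molecular identifiers (UMIs, each marking a single captured RNA molecule). A member then had at least 15 UMIs of Psmb11 and Prss16 per 10000 UMIs of the cell, and at least 5 per 10000 of Cd3d, Cd3e, Cd3g, Cd8b1, Ptcra and Rag1 together. Both sums are used below as the cortical sum and the thymocyte sum. Single-cell RNA was measured by droplet sequencing in 2 libraries, each of TECs pooled from 3 C57BL/6 mice and sorted as CD45-, TER119- and EpCAM+. The irradiated mice had received a sublethal whole-body dose 15 days earlier, and age-matched mice without irradiation served as controls. The labels give an age of 9 weeks as a characteristic but 4 weeks in the protocol. The labels of the deposit also name the conditions of both libraries the other way round. The libraries were assigned here by the names of the deposited matrices and by the cell numbers of the study, so each direction between libraries below would reverse under the labels. With 1 library per condition, no difference between conditions has a replicate check, no test was made, and a library effect and an effect of irradiation cannot be told apart. Intervals are exact 95% Clopper-Pearson intervals for shares and exact 95% Poisson intervals for summed UMIs, and they cover counting error only.

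The cortex of the thymus is built by cortical TECs (cTECs), which attract precursors, signal through Notch ligands and cytokines, and present peptides to CD4+CD8+ double-positive thymocytes. Psmb11 encodes the proteasome subunit β5t and Prss16 a serine protease, and both shape the peptides on which thymocytes are positively selected. Some cTECs enclose thymocytes in complexes known as thymic nurse cells, in which double-positive thymocytes that rearrange their T cell receptor genes are common. Such a complex, a cTEC and a thymocyte caught in the same droplet, and free thymocyte RNA taken up with a cTEC all give the same kind of barcode in droplet data. These sources were not tested here and cannot be told apart from the counts alone.

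The members numbered 24 of 3233 kept cells in the control library and 71 of 5072 in the irradiated library. The kept cells included a further 114 control and 293 irradiated cells past the same cortical threshold and with a thymocyte sum under 5, which are called comparison cells below. Their cortical sum was lower than that of the members, with medians of 39.3 against 75.5 per 10000 in the control and 54.0 against 88.1 in the irradiated library. Between the libraries, the members made up 0.742% (0.476 to 1.10) and 1.40% (1.09 to 1.76) of kept cells, a log2 ratio of irradiated over control of 0.92 whose range ran from -0.010 to 1.89. The range joins the opposite ends of both intervals and includes 0. All cells past the cortical sum were 4.27% (3.60 to 5.02) of kept control cells and 7.18% (6.48 to 7.92) of kept irradiated cells. Within these cortical cells the members were 17.4% (11.5 to 24.8) in the control and 19.5% (15.6 to 24.0) in the irradiated library, with a log2 ratio of 0.17 (-0.67 to 1.06). The intervals, which cover counting error only, overlapped.

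The values that selected the members were spread well past the thresholds. Their thymocyte sum ran from 5.41 to 37.7 per 10000 with a median of 13.2 in the control library, and from 5.64 to 78.6 with a median of 11.7 in the irradiated library. The lowest member stood at 5.41 and the cortical cell just under the threshold at 4.85 in the control library, and these values were 5.64 and 4.74 in the irradiated library. Of the comparison cells, 87 of 114 and 258 of 293 had no UMI of the 6 thymocyte genes, so few cells lay near the limit. The cortical sum of the members had a median of 75.5 per 10000 in the control library (22.9 to 138) and 88.1 in the irradiated library (15.5 to 167). Among kept cells past the thymocyte threshold, the next cells under the cortical threshold had 3.09 and 7.40 per 10000, while over all kept cells the cortical sum ran up to 14.1 and 14.3 under the threshold and started at 15.3 and 15.1 in cells above it.

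**Figure D1:**
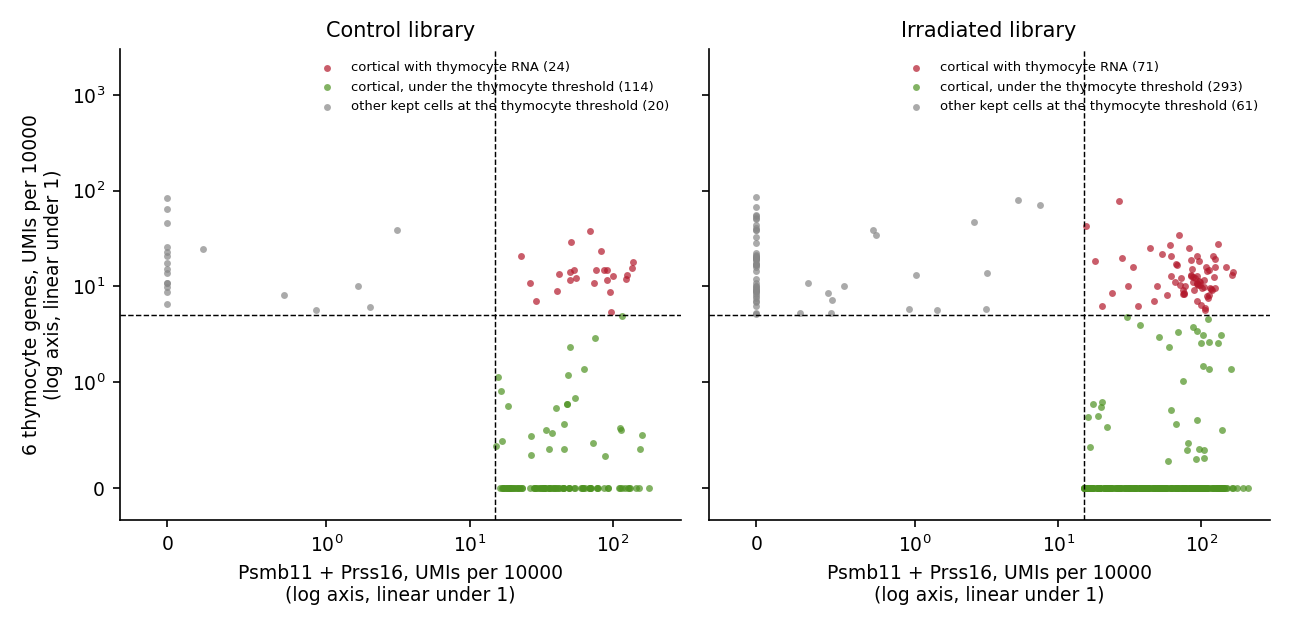
The thymocyte sum (y) against the cortical sum (x), in UMIs per 10000 of each cell on log axes that are linear under 1, for kept cells past either threshold; dashed lines mark the thresholds of 15 and 5. The 24 control and 71 irradiated members lie past both lines by the rule that chose them. Of the comparison cells, 87 and 258 lie at 0 on the y axis.

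Of the 6 genes named as markers of these cells, 5 were found in nearly every member. Psmb11 was detected in all 24 control and all 71 irradiated members, at 13.4 (12.6 to 14.3) and 12.3 (11.8 to 12.8) UMIs per 10000 summed UMIs. Ccl25, the chemokine that draws Ccr9-bearing precursors to the thymus and which the rule did not use, was also found in each member. Its level was 69.98 (68.2 to 71.8) and 62.8 (61.7 to 63.9) per 10000. Comparison cells held Ccl25 in 114 of 114 and 290 of 293 cases, at 46.9 and 57.5 per 10000. At a matched cortical sum of at least 50 per 10000, its log2 ratios of members over comparison cells were 0.074 and -0.068. Its presence thus did not set the members apart from other cortical cells. Rag1, which cuts the receptor genes during rearrangement, was present in 22 of 24 and 67 of 71 members, and all of these also held Psmb11. Cd8b1, the β chain of the CD8 co-receptor, was present in 23 of 24 and 70 of 71. Ptcra, the invariant chain of the pre-T cell receptor, went against its place in this list, since it was found in 6 of 24 and 16 of 71 members, at 0.26 and 0.11 per 10000. All of the 6 but Ccl25 are genes of the rule, so their presence was set by the choice of cells and does not bear on the label. Whether a barcode was a nurse cell in structure cannot be read from RNA.

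The members were among the deepest cells of each library. Their UMIs per cell ran from 17094 to 51137 with a median of 33067 in the control library, and from 7738 to 45182 with a median of 26270 in the irradiated library. Comparison cells had medians of 17980 and 15795, so that the members held 1.84 and 1.66 times as many UMIs. In median UMIs, the difference of 15087 and 10475 exceeded the 5308 and 1659.5 of barcodes that held thymocyte RNA and little epithelial RNA (13 and 78 barcodes with at least 500 UMIs, a thymocyte sum of at least 15 and cortical and epithelial sums under 5, called free thymocyte barcodes). Detected genes had medians of 6561.5 and 5963 in members against 4704.5 and 4548 in comparison cells. The upper limit of 7500 genes removed a further 11 control and 10 irradiated cells that met both sums, but only 2 and 1 comparison cells. Mitochondrial shares were alike, with medians of 4.63% and 5.38% in members and 5.47% and 4.89% in comparison cells. The libraries shared 17 barcode sequences, and 0 members were among them.

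**Figure D2:**
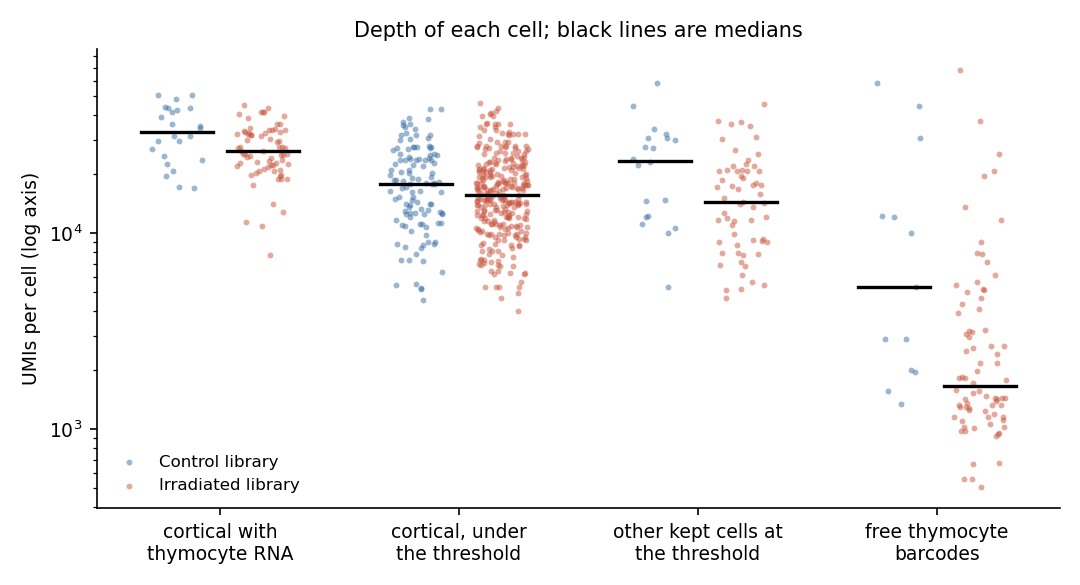
UMIs per cell (log axis) for each member, comparison cell, other kept cell past the thymocyte threshold and free thymocyte barcode, in blue for the control and red for the irradiated library; black lines are medians. The members have the highest medians, 33067 and 26270.

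Thymocyte RNA was met far more often in cortical cells than in other cells. Past the same thymocyte threshold were 20 of 3095 control and 61 of 4708 irradiated cells under the cortical threshold, or 0.646% (0.395 to 0.996) and 1.30% (0.992 to 1.66). The share in cortical cells was 26.9 times (11.5 to 62.7) and 15.1 times (9.37 to 24.1) as high. Among the other cells, 7 of the 20 and 16 of the 61 were free thymocyte barcodes. When other cells were limited to those with at least 5 UMIs of Epcam, Krt8 and Krt18 per 10000, which mark epithelium, the shares were 0.425% and 0.945%. Depth differed between these classes, with a median of 13288 and 12713 UMIs in the other cells.

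Depth moved with the share and was therefore taken in bands. In the control library the members were 0 of 18 cortical cells under 10000 UMIs, 3 of 52 between 10000 and 20000, 7 of 38 between 20000 and 30000, and 14 of 30 above. In the irradiated library they were 1 of 55, 11 of 160, 32 of 97 and 27 of 52. The share was thus higher in each deeper band, and members were 46.7% (28.3 to 65.7) and 51.9% (37.6 to 66.0) of the deepest cortical cells. Other cells of the deepest band reached 3.14% (1.27 to 6.36) and 3.26% (1.32 to 6.59), well under the cortical cells of like depth. After each cell was thinned to 4000 UMIs, 15 of the 24 control and 37 of the 71 irradiated members still had at least 5 UMIs of the thymocyte genes, a higher bar per 10000 than that of the rule. The share was higher at a higher cortical sum as well. Members were 3 of 40 control and 6 of 86 irradiated cells between 15 and 30 per 10000, and 14 of 49 and 57 of 194 at 60 or more. These deeper and more strongly cortical cells overlap, and their parts in the share were not tested.

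**Figure D3:**
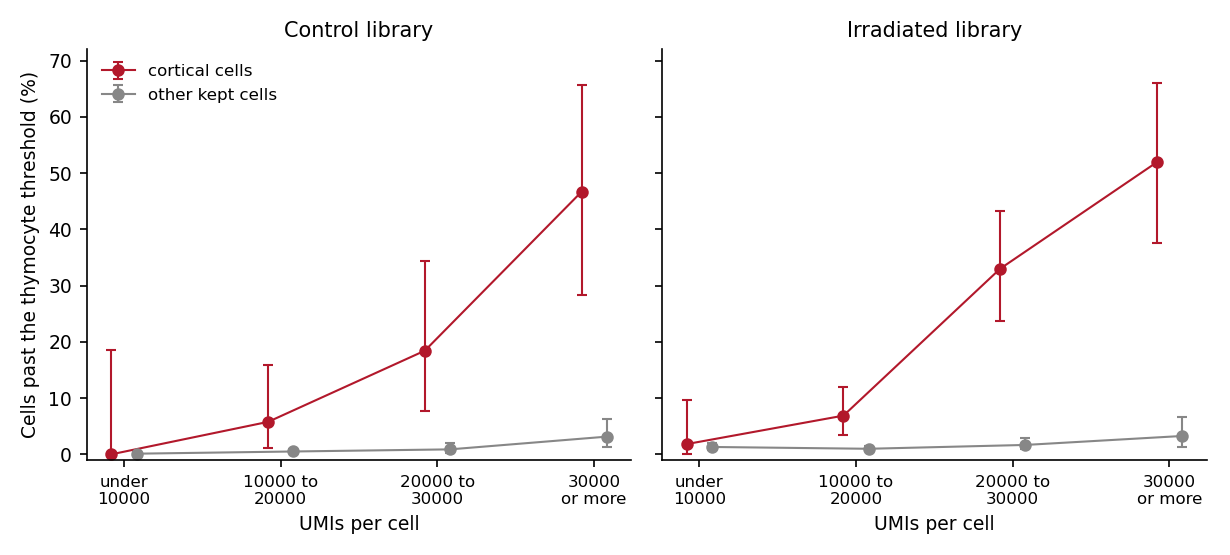
Percent of cells past the thymocyte threshold (y) in bands of UMIs per cell (x), for cortical cells in red and other kept cells in grey, with exact 95% binomial intervals. Cortical cells reach 46.7% and 51.9% in the deepest band, and other kept cells 3.14% and 3.26%.

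The thymocyte RNA of the members was broad. A list of 27 genes of T lineage cells was read without the 3 CD3 genes of the rule, which left 24 (Trac, Trbc1, Trbc2, Lck, Lat, Ptprc, Tcf7, Bcl11b and others). Together they gave 57.8 (56.2 to 59.5) UMIs per 10000 in control members and 56.9 (55.8 to 58.0) in irradiated members. The corresponding levels were 6.98 and 6.61 in comparison cells and 179 and 224 in free thymocyte barcodes. The members thus held 32.4% and 25.4% of the level of free thymocyte barcodes. Gene by gene, with at least 30 UMIs in these barcodes, the share ran from 23.6% to 77.4% over 19 genes in the control library. In the irradiated library it ran from 16.2% to 54.2% over 23 genes. Deep barcodes weigh most in these levels, since 1 of the 13 control barcodes held 58293 of their 186183 UMIs. In the irradiated library, 1 of the 78 held 68138 of 367664. Some of these barcodes also held RNA of other cells. The macrophage gene C1qb had 114 UMIs in 2 irradiated barcodes and 0 in the control ones. The class II gene H2-Aa stood at 15.4 per 10000 in control and 0.95 in irradiated barcodes. Trbc2, a constant gene of the receptor β chain, was found in 24 of 24 and 70 of 71 members, and Lck, the kinase that starts receptor signalling, in 23 of 24 and 68 of 71. Ptprc, which encodes CD45, was found in 23 of 24 and 69 of 71 members but in 8 of 114 and 16 of 293 comparison cells, although CD45 was selected against in the sort. In UMIs per cell, the list had medians of 193 and 112 in members, 8 in each set of comparison cells, and 113 and 54.5 in free thymocyte barcodes. The level varied among members from 28.3 to 110 per 10000 in the control and from 10.3 to 234 in the irradiated library.

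Most genes of the double-positive stage were found in most members. Read without Rag1 and Cd8b1, 13 genes of this stage gave 20.5 (19.6 to 21.5) per 10000 in control and 21.3 (20.7 to 22.0) in irradiated members, against 1.93 and 2.13 in comparison cells. Satb1, a chromatin organiser of double-positive thymocytes, had a median of 5.62 per 10000 over control members (1.14 to 15.6) and 5.22 over irradiated members (0 to 36.8). Dntt, which adds bases at receptor joints, was found in 24 of 24 and 68 of 71 members. Arpp21 was found in 23 of 24 and 67 of 71, and Themis, needed for positive selection, in 23 of 24 and 65 of 71. Rag2, the partner of Rag1, was found in 11 of 24 and 28 of 71 members, and Cd1d1, which presents lipids, in 11 of 24 and 34 of 71. Cd1d1, Bcl2l1 and Camk4 stood less than 2-fold above comparison cells in both libraries, with log2 ratios from 0.26 to 0.89. UMIs of Cd4 and of Cd8a occurred together in 18 of 24 and 61 of 71 members, against 2 of 114 and 6 of 293 comparison cells. Ccr9, the receptor for Ccl25, was found in 18 of 24 and 62 of 71 members, at 1.44 (1.19 to 1.72) and 1.65 (1.48 to 1.84) per 10000 against 0.078 and 0.063 in comparison cells. Ligand and receptor of this pair were thus found under the same barcodes.

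Genes of earlier and later stages differed among themselves. Of the genes of the double-negative stage, Myb, a transcription factor of immature thymocytes, was found in 22 of 24 and 58 of 71 members, at 1.57 and 1.21 per 10000 against 0.11 and 0.086 in comparison cells. Notch1, the receptor of Dll4, was found in 16 of 24 and 44 of 71, at 0.51 and 0.49 against 0.26 and 0.45. Kit, the stem cell factor receptor, was found in 2 of 24 and 2 of 71 members, and Il2ra, the interleukin-2 receptor α chain, in 6 of 24 and 12 of 71. Without Ptcra, the 9 genes of that list gave 3.83 (3.41 to 4.28) and 2.44 (2.23 to 2.68) per 10000, against 1.58 and 1.51 in comparison cells. Among genes of selected and single-positive thymocytes, Ccr7, which guides cells into the medulla, had 1 and 5 UMIs over all members, and S1pr1, needed to leave the thymus, had 3 and 6. The 12 genes of that list gave 2.76 and 3.50 per 10000 in members and 2.98 and 2.47 in comparison cells, and its log2 ratios at a matched cortical sum of at least 50 per 10000 were 0.69 (0.25 to 1.12) and 0.52 (0.30 to 0.75). Cd5, a surface receptor that tunes receptor signals, stood at 0.24 and 0.32 against 0.014 and 0.012, and was found in 9 of 24 and 26 of 71 members. Klf2 led this list in members at 0.79 and 1.59, but it was at 2.20 and 1.70 in comparison cells. Trdc, the δ chain constant gene, was found in 11 of 24 and 21 of 71 members. The 4 genes of γδ T cells gave 1.10 and 0.34 per 10000, against 3.87 and 3.48 in free thymocyte barcodes.

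The receptor genes were also read for signs of more than a single thymocyte per barcode. Trbc1 and Trbc2 were both found in 21 of 24 control members (87.5%, 67.6 to 97.3) and in 56 of 71 irradiated members (78.9%, 67.6 to 87.7). Free thymocyte barcodes, at median depths of 5308 and 1659.5 UMIs, held both in 11 of 13 and 40 of 78 cases. After thinning to 4000 UMIs the members with both were 20 of 24 and 40 of 71. The constant genes are near-identical, and a thymocyte can transcribe either before or during rearrangement, so their joint detection does not count cells. Variable gene segments were seldom captured: at least 2 Trbv genes were found in 1 of 24 and 4 of 71 members, and at least 2 Trav genes in 1 of 24 and 6 of 71. The number of thymocytes per member was thus not resolved by these counts.

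Cortical genes were abundant in the members. Read without Psmb11 and Prss16, 13 cortical genes gave 406 (401 to 410) UMIs per 10000 in control and 386 (383 to 388) in irradiated members. The levels were 317 and 375 in comparison cells and 4.57 and 3.92 in free thymocyte barcodes. In UMIs per cell the medians were 1392.5 and 1036 in members and 453.5 and 547 in comparison cells. Ctsl, the cathepsin that shapes class II peptides, ranged from 41.7 to 269 per 10000 over control members (median 151) and from 5.45 to 304 over irradiated members (median 143). Foxn1, the master regulator of the TEC fate, was found in 24 of 24 and 69 of 71 members. Dll4, the Notch ligand that commits precursors to the T lineage, was found in 17 of 24 and 54 of 71, and Cxcl12, which retains precursors, in all 24 and all 71. The epithelial list of 7 genes was at 117 and 114 per 10000 against 116 and 123 in comparison cells. Krt8 and Krt18, the keratins of simple epithelium, stood at 49.7 and 61.7 per 10000 in control members and at 50.2 and 57.6 in irradiated members.

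Because comparison cells reached down to the cortical threshold, the contrast was repeated with a cortical sum of at least 50 per 10000 on both sides, a limit chosen after the data had been seen. This left 19 members and 39 comparison cells in the control library and 59 and 155 in the irradiated library. Their cortical lists were then at 418 against 436 and at 412 against 438 per 10000, log2 ratios of -0.062 (-0.093 to -0.030) and -0.089 (-0.11 to -0.070). The higher cortical level of the members over all comparison cells, 406 against 317 in the control library, was thus turned into a slightly lower level over comparison cells of like cortical sum. The thymocyte list stayed at 59.2 against 8.22 and 54.3 against 7.05. Median depth remained higher in the members, at 35489 against 22089 and 27320 against 18933 UMIs.

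The remaining contrasts between members and comparison cells rest on the same cells that the rule divided, and are given as a description without a test. Of 7930 genes with at least 100 UMIs over either class, the members were higher by 2-fold or more in 3.4% and lower in 4.97% in the control library, and in 2.84% and 2.91% in the irradiated library. Of the 26 tested thymocyte genes, 23 were higher by 2-fold or more in each library, and 3 of these, Cd3d, Cd3e and Cd3g, are genes of the rule whose excess was fixed by it. The exceptions were Lcp1, Ptpn22 and Arhgdib, and Arhgdib stood at 3.39 and 3.26 per 10000 even in comparison cells. The 10 genes with the most raised level by the smaller of both log2 ratios were Trdc, Traf3ip3, Cd8b1, Trbc1, Jakmip1, Arpp21, Cd3e, Rag1, Cd3d and Gzma. Of these, Cd8b1, Cd3e, Rag1 and Cd3d are genes of the rule. Gzma, a granule protease, had 27 and 84 UMIs in members against 1 and 6 in comparison cells.

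Genes of antigen presentation were mostly lower in the members at matched cortical sum. All 7 MHC class II genes tested were below comparison cells in both libraries, none by 2-fold, with a list level of 199 (196 to 202) and 196 (194 to 198) per 10000 against 281 and 268. H2-Ab1, a β chain of class II, ranged from 16.8 to 70.8 per 10000 over control members and from 3.64 to 73.6 over irradiated members. The class II list was also lower at matched cortical sum, by log2 ratios of -0.42 and -0.43. Of 12 MHC class I and proteasome genes, 7 were above and 5 below comparison cells in the control library, and 6 were on each side in the irradiated library, with medians of 0.056 and 0.0064 on the log2 scale. H2-K1, H2-D1 and B2m, which make up class I molecules, were below comparison cells in both libraries, with log2 ratios from -0.26 to -0.50. At matched cortical sum the class I list was lower by log2 ratios of -0.18 (-0.24 to -0.12) and -0.30 (-0.34 to -0.27). Adhesion and uptake genes, such as Vcam1 and the apoptotic cell bridge Gas6, gave 44.1 and 46.3 per 10000 against 51.8 and 50.1, with 9 of 12 tested genes below comparison cells in each library. The shared thymocyte RNA lowers the share of each epithelial gene in a barcode, and its part in these values was not tested.

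Most medullary, interferon and stress genes tested were lower in the members. All 5 medullary genes tested were below comparison cells in both libraries. Ccl21a, the chemokine of medullary and some precursor TECs, stood at 5.75 and 1.39 per 10000 against 15.1 and 17.6 in comparison cells. Krt14, a keratin of the epithelial list, stood at 0.88 and 0.52 against 2.08 and 1.997. Of 10 stress genes, 9 were below comparison cells in the control library and all 10 in the irradiated library. The exception was Dnajb1, at 2.33 against 2.08 in the control library. All 12 interferon-induced genes tested were below comparison cells in the control library, 6 of them by 2-fold or more, and 11 of 12 in the irradiated library, 5 by 2-fold or more. Ifi27l2a had the largest differences of that list, at 0.72 and 1.14 against 6.302 and 6.94 per 10000. Stress and immediate early genes gave 28.3 and 15.6 per 10000 against 52.2 and 28.3. At matched cortical sum these differences were smaller for stress genes, at 29.4 against 33.6 in the control and 13.9 against 21.1 in the irradiated library, and remained for interferon genes, at 16.9 against 29.4 and 20.1 against 28.3. In the control library at matched cortical sum, Fezf2 of the medullary list was above comparison cells, with a log2 ratio of 1.54. So were Dnajb1, Hspa1a and Ier2 of the stress list, at 0.75, 0.087 and 0.061, while the other stress genes were below. The 10 genes with the most lowered level were Sprr2a3, Psors1c2, Sbpl, Calcb, Igfbp4, Id1, Myl9, Rcn3, Gpx3 and Ly6a. Sprr2a3, a protein of the cornified envelope, had 0 UMIs in all members against 218 and 343 in comparison cells, and Ly6a, the Sca-1 antigen, stood at 0.43 and 0.33 per 10000 against 3.12 and 2.10. At matched cortical sum in the control library, Psors1c2 and Sbpl were at 0 in comparison cells as well. The log2 ratio of Rcn3 was -0.84 in place of -2.92. Those of Calcb, Myl9 and Gpx3 were -1.69, -1.82 and -1.73 in place of -4.26, -4.17 and -3.29. In the irradiated library, Sbpl, Id1 and Gpx3 had matched ratios of -1.89, -1.68 and -1.61 in place of -4.97, -3.35 and -2.75. Calcb and Myl9 had matched ratios of -3.50 and -3.37 there. Ly6a had matched ratios of -1.81 and -1.88.

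Proliferation genes were present in the members and in free thymocyte barcodes. The cell cycle list of 10 genes gave 11.7 (10.97 to 12.5) and 8.04 (7.65 to 8.45) per 10000 in members, 1.28 and 2.15 in comparison cells, and 79.8 and 51.8 in free thymocyte barcodes. Mki67, a marker of dividing cells, was found in 10 of 24 and 27 of 71 members. A UMI of Mki67 or Top2a was present in 14 control and 30 irradiated members, which had median depths of 33518.5 and 31611.5 UMIs against 33013.5 and 24201 in the rest. Ptcra had 20 of its 21 UMIs in these cells in the control library and 15 of 21 in the irradiated library. Per 10000, it stood at 0.42 (0.254 to 0.642) against 0.031 (0.00078 to 0.171) in the rest of the control members. In the irradiated library it stood at 0.17 (0.094 to 0.276) against 0.058 (0.021 to 0.126), so the intervals overlapped. Ptcra was at 0 in 18 of 24 control members and reached 2.85 per 10000 in 1. Trdc stood at 1.12 (0.843 to 1.46) against 0.21 (0.086 to 0.442) per 10000 in the control library. In the irradiated library it stood at 0.45 (0.319 to 0.608) against 0.039 (0.011 to 0.099). Cd4, by contrast, stood at 0.52 (0.336 to 0.767) against 1.01 (0.696 to 1.42) in the control library, and at 1.13 (0.918 to 1.37) against 1.32 (1.11 to 1.56) in the irradiated library. These groups of cells were chosen after the data had been seen, and cells are not replicates.

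Markers of other cell types were low in sum, but single members held more. All 5 dendritic and all 5 erythroid genes were at 0 in the members of both libraries, which allows up to 0.0371 and 0.0155 UMIs per 10000 for each gene when taken as 3 UMIs over the group. The macrophage list of 7 genes gave 0.92 and 0.41 per 10000, led by C1qb at 0.32 in the control and Lyz2 at 0.37 in the irradiated library, with Adgre1 at 0 in the latter. Lyz2 was at 0 in 63 of 71 irradiated members and reached 16.4 per 10000 in 1. B cell genes gave 0.087 and 0.036, led by Cd79b, with Ms4a1 at 0 in both. The antibody genes Igkc and Ighg2b, which that list does not hold, had 158 of 159 and 107 of 108 UMIs of the control members in 1 cell each. Of the endothelial genes only Pecam1 was found, at 0.17 and 0.27, with Cdh5 and Kdr at 0. Of the fibroblast genes only Dcn was found, at 0.87 and 0.38, with Pdgfra, Col1a1 and Col3a1 at 0.

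**Figure D4:**
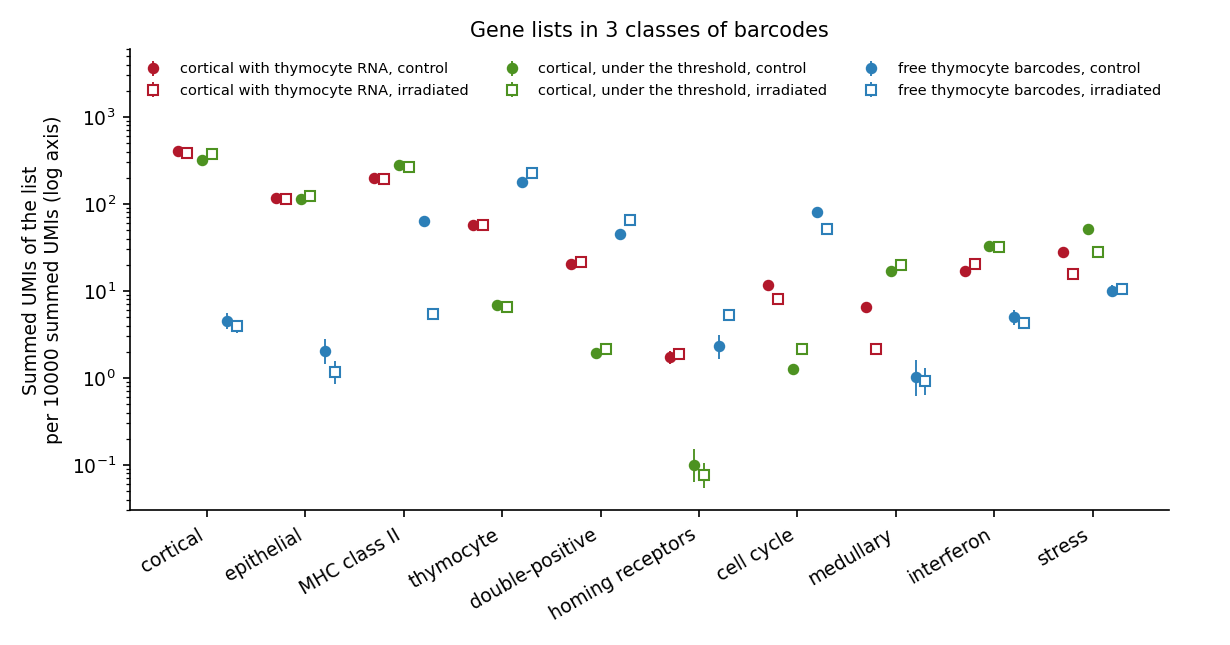
Summed UMIs of 10 gene lists per 10000 summed UMIs (y, log axis) in members (red), comparison cells (green) and free thymocyte barcodes (blue), with filled circles for the control and open squares for the irradiated library; bars are exact 95% Poisson intervals. The thymocyte list of the members, 57.8 and 56.9, lies between comparison cells and free thymocyte barcodes, while their cortical list is at 406 and 386.

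Between the libraries, few genes differed in the members. Of 4723 genes with at least 100 UMIs over the members of both libraries, 15 (0.318%) were higher and 17 (0.36%) lower by 2-fold or more in the irradiated library, and the median log2 ratio was 0.016. In comparison cells these shares were 0.447% and 0.844% of 7822 genes. The sets of genes are unlike, since the same minimum reaches genes of lower level in comparison cells. Their summed UMIs were 2177058 and 5098187, against 807568 and 1930717 in members. The counts in members changed with the minimum of UMIs per gene and with the upper limit of detected genes, as given under processing. The thymocyte list differed by -0.023 (-0.092 to 0.045) on the log2 scale, the double-positive list by 0.056 (-0.058 to 0.17) and the class II list by -0.025 (-0.062 to 0.012), each with a range that includes 0. The cortical list differed by -0.074 (-0.10 to -0.048) in members and by 0.24 (0.22 to 0.26) in comparison cells. Of the 15 genes of the full list only Ackr4, a scavenger of chemokines, passed 2-fold, at 0.85 and 0.41 per 10000 (log2 ratio -1.05, -1.72 to -0.37), and without the highest cell of each library its ratio was -0.50. Without the upper limit of 7500 genes, which adds 11 and 10 deep cells, the thymocyte list differed by -0.37 and the cortical list by 0.12. None of the 26 thymocyte and 12 double-positive genes tested passed 2-fold. The highest ratio in those lists was that of Cd2, an adhesion receptor of T cells, at 0.95 (0.055 to 1.91). Among their other genes, Cd4 stood at 0.72 (0.55 to 0.93) in control and 1.23 (1.08 to 1.40) per 10000 in irradiated members, and Trac at 1.05 (0.84 to 1.30) and 1.65 (1.48 to 1.84). Trbc1 had the lowest ratio, at 9.18 (8.53 to 9.86) and 6.02 (5.68 to 6.38).

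Stress and immediate early genes differed in the same direction throughout. All 9 tested were lower in irradiated members, 3 of them by 2-fold or more, and the list stood at 28.3 (27.2 to 29.5) in control and 15.6 (15.1 to 16.2) per 10000 in irradiated members, a log2 ratio of -0.86 (-0.97 to -0.75). Egr1, a transcription factor induced within minutes of a stimulus, stood at 1.14 and 0.45 per 10000 (log2 ratio -1.35, -1.97 to -0.74), Ier2 at 2.501 and 1.09 and Fos at 2.63 and 1.28. Without the highest cell of each library, the ratio of Fos was -0.64, short of 2-fold, and those of Egr1 and Ier2 were -1.64 and -1.10. Per cell, Jun had a median of 3.87 per 10000 over control members (0.337 to 17.4) and 2.39 over irradiated members (0 to 19.98), so the ranges overlapped. Comparison cells differed alike, with a list ratio of -0.88 (-0.93 to -0.83). The cell cycle list was lower in irradiated members, with 6 of 6 tested genes below 0 and none past 2-fold, and a list ratio of -0.54 (-0.71 to -0.38). The ranges of Stmn1, Tyms and Pcna lay below 0, at ratios of -0.59, -0.96 and -0.53. Those of Mki67, Birc5 and Top2a included 0, at -0.013, -0.17 and -0.43. In comparison cells the cell cycle list was higher by 0.75 (0.49 to 1.01). Only 3 of its genes had enough UMIs there to be tested, Stmn1 at 1.18, Tyms at 0.16 and Pcna at 0.016. The ranges of Tyms and Pcna included 0. At a cortical sum of at least 50 per 10000, the list stood at 0.94 and 1.20 per 10000 in comparison cells, and at 13.6 and 8.29 in members. The 9 medullary genes, led by Ccl21a in each class, had a ratio of -1.61 (-1.87 to -1.34) in members and 0.24 (0.16 to 0.31) in comparison cells. In members this value is mainly that of Ccl21a, which had 464 and 269 UMIs. It was the only 1 of the 9 genes with enough UMIs there to be tested. Aire went the other way, with 1 and 38 UMIs, but it was at 0 in 64 of 71 irradiated members and reached 9.14 per 10000 in 1. The double-negative list without Ptcra had ratios of -0.65 (-0.94 to -0.35) and -0.063 (-0.32 to 0.20). Its widest differences in members were those of Il2ra, at 0.64 and 0.083 per 10000, and Hes1, at 0.72 and 0.20. Hes1 was at 0 in 13 of 24 control members and reached 10.8 per 10000 in 1. Cd44 stood the other way, at 0.25 and 0.33. Only 2 genes of the list were tested in members, and 0 passed 2-fold.

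Targets of p53, which arrest or kill damaged cells, differed little in the members. Their list gave 9.39 (8.73 to 10.1) and 10.3 (9.86 to 10.8) per 10000, a log2 ratio of 0.14 (-0.03 to 0.30), and 0 of 7 tested genes passed 2-fold. Cdkn1a, the cell cycle inhibitor p21, stood at 0.89 and 0.92, a log2 ratio of 0.042 (-0.51 to 0.60). In comparison cells the list ratio was 0.43 (0.34 to 0.53), with 10 of 11 tested genes above 0. Cdkn1a stood at 0.63 and 1.55 there, a ratio of 1.30 (0.95 to 1.65). The exception was Fas, a death receptor, with a ratio of -1.03 (-1.85 to -0.21). The interferon list was slightly higher in irradiated members, at 17.2 (16.3 to 18.1) and 20.3 (19.7 to 20.9), with 8 of 10 tested genes above 0. Iigp1, an interferon-induced GTPase, stood the other way, at 2.01 (1.71 to 2.34) and 0.61 (0.50 to 0.73). Its log2 ratio was -1.73 (-2.22 to -1.23) in members and -1.29 in comparison cells.

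**Figure D5:**
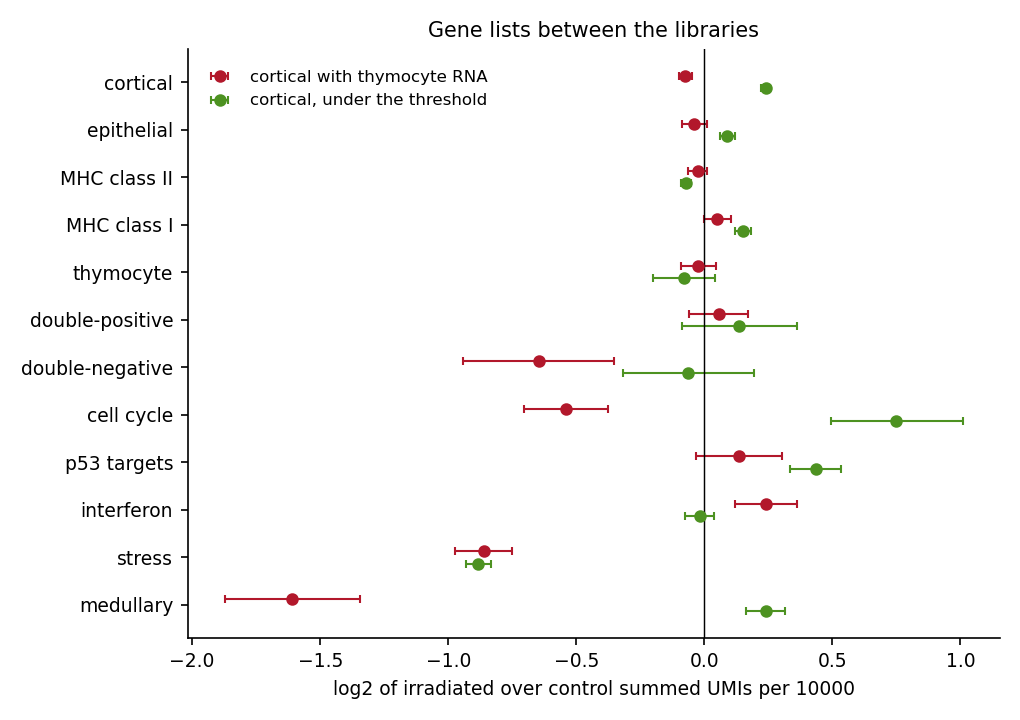
Log2 ratio of irradiated over control summed UMIs per 10000 (x) for 12 gene lists in members (red) and comparison cells (green); bars join the opposite ends of exact 95% Poisson intervals. The stress list lies at -0.86 in members and -0.88 in comparison cells, and the cell cycle list at -0.54 and 0.75.

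Many UMIs behind the widest ratios came from a single cell. The 10 most raised genes in irradiated members were S100a8, Fabp4, Wfdc18, S100a6, Myo5c, Cd52, A630023P12Rik, Fn1, Uhmk1 and Atp1b1. Of the 147 UMIs of S100a8, 128 came from 1 cell, as did 210 of 248 of Fabp4, a fatty acid carrier, and 95 of 117 of Wfdc18. Without the highest cell of each library, S100a8 had 19 UMIs in irradiated and 0 in control members, Fabp4 had a log2 ratio of 2.13 (0.23 to 4.23) in place of 4.53, and that of Wfdc18 went from 2.10 to 0.29 (-1.36 to 2.05). S100a6, a calcium-binding protein, was found in 9 of 24 and 30 of 71 members, at 0.25 and 0.76 per 10000, and its ratio was 1.59 with and 2.08 without those cells. Cd52, a surface glycoprotein of lymphocytes, was found in 16 of 24 and 57 of 71 members, at 0.40 and 0.96 per 10000 (log2 ratio 1.26, 0.56 to 2.01). Myo5c and Fn1, encoding an unconventional myosin and fibronectin, had ratios of 1.38 and 1.16.

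The 10 most lowered genes were Ighg2b, Igkc, Ccl21a, Iigp1, Trdc, Clu, Egr1, Tesc, Rrm2 and Gsta4. Of the 108 UMIs of Ighg2b in control members 107 came from 1 cell, and 158 of 159 of Igkc, genes of antibody chains. Against the 0 UMIs of Ighg2b in irradiated members, taken at the 3 UMIs that a count of 0 allows over the group, its level was at least 86.1-fold higher in the control library, but that value rests on the same cell. Without the highest cells, the ratio of Igkc was -0.054 (-3.72 to 2.86), and that of Clu went from -1.43 to -0.27 (-0.83 to 0.30). Ccl21a kept a ratio of -2.17 (-2.57 to -1.77), with 12 of 24 and 34 of 71 members positive, Trdc of -1.60 (-2.53 to -0.67) and Gsta4 of -1.25 (-1.93 to -0.57). Of all genes past 2-fold, 14 of 15 higher and 10 of 17 lower genes still passed it without their own highest cells. The 10 include Ighg2b, which then had 1 UMI against 0 and so gives no usable ratio.

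The members were not uniform. In the control library the epithelial sum of Epcam, Krt8 and Krt18 was 74.7 per 10000 or more in the 3 cells with the highest thymocyte sums. In the irradiated library, the cell with the highest thymocyte sum, 78.6 per 10000, had a cortical sum of 26.4 but an epithelial sum of 3.64 and 22007 UMIs, against the label of a cortical cell. The next cell, with 42.3, had a cortical sum of 15.5 and an epithelial sum of 34.5. Without the former, 70 irradiated members remained, and the thymocyte list differed between the libraries by -0.076 and the cortical list by -0.058 on the log2 scale. When members were ranked by thymocyte sum and divided into 4 groups, the cortical list of irradiated members was 396, 391, 422 and 328 per 10000 from the lowest to the highest group, and that of control members 391, 445, 359 and 431. The cortical list therefore did not follow the thymocyte sum evenly. The lowest of these values in the irradiated library, 328, was that of the group with these 2 cells.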

How the data were processed

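Reads were aligned to the genome of the mouse by the authors, and Cell Ranger (5.0.1 in the matrix headers, 5.1 in the labels) made the table of UMIs. They deposited raw counts, without normalization, for 4937 control and 7167 irradiated barcodes and 32285 listed genes, holding 58185309 and 82201657 UMIs. The deposited lists of genes and barcodes carry names only. The labels name version 2 of the droplet kit, and the methods of the study version 3. Counts of genes sharing a symbol were summed. Levels are UMIs of a gene or list summed over cells per 10000 summed UMIs. Log2 ratios of genes used 0.5 added UMIs, and a gene was tested for size with at least 100 UMIs over the groups compared, 2-fold being the limit. No doublet caller was run and no doublet was removed, apart from the upper limit of 7500 genes. Named genes were those of the fixed lists, the 10 highest and 10 lowest ratios between the libraries in members, and the 10 highest and 10 lowest against comparison cells by the smaller ratio of both libraries with the same sign. The members and lists were chosen with earlier results of these data known. On simulated counts for this comparison (4671 genes tested), 159 of 159 tested genes changed at least 3-fold were called with the right sign, and 1 unchanged gene was called. These were Poisson counts without spread between cells, unlike the data, where 1 cell held most UMIs of some called genes. The simulation therefore checks the calculation only and gives no rate of false calls for the data. Cells were thinned at random to 4000 UMIs where stated. Alternatives changed both thresholds, the cell limits, the denominator, the lists and the gene minimum. Python 3.11.15 with numpy 2.4.6, scipy 1.17.1, pandas 2.3.3 and matplotlib 3.10.9 was used.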

Additional observations from a re-analysis of the deposited data

How the results depend on the processing

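No paired analysis was possible because each condition has 1 library. Of 141 values recomputed under alternatives, 108 stayed within the interval of the main value or, for a count, within 1.5 times of it. The cause of the other changes was not tested.
With a thymocyte sum of at least 3 per 10000, the log2 ratio of irradiated over control was -0.093 for the thymocyte list and -0.044 for the cortical list, 23 genes were higher by 2-fold, and 1.16% of other control cells passed. With at least 10, irradiated members were 0.946% of kept and 13.2% of cortical cells, against 14.5% of cortical cells in the control library, an order opposite to the main one, 0.828% of other irradiated cells passed, and the ratios were 0.20 and -0.11. A lower limit of 1000 detected genes gave 1.89% of other irradiated cells. Without the upper limit of detected genes, the ratios were -0.37 and 0.12, the latter reversed in sign, and 40 genes were lower. Without Ctsl, its most abundant gene, the cortical list ratio was -0.019. With 5 thymocyte UMIs after thinning to 4000 UMIs, the share of cortical cells was 10.9% and 10.2%, again opposite to the main order. That of other cells was 0.355% and 0.808%. After such thinning, 56.3% of irradiated members held both Trbc1 and Trbc2. With a minimum of 30 UMIs, 147 genes were higher and 132 lower, and with 300, 1 and 5. Under the treatment labels, the members were 1.40% of kept cells in the control and 0.742% in the irradiated library, with ratios of -0.92 for that share and 0.074 for the cortical list. Of alternatives chosen after the data had been seen, a cortical sum of at least 60 gave shares of 28.6% and 29.4% of cortical cells, at least 20000 UMIs gave 30.9% and 39.6%, limiting other cells to epithelial ones gave 0.945% in the irradiated library, and leaving out each gene's highest cells left 10 lower genes, 1 of them with 1 UMI against 0. The number of members, 24 in the control library, limits the precision of its values, and the part of depth per cell in the share of members was not tested.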
